A study of Mus musculus with 4 samples.

Results

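Ucp2, Ucp3, Angptl4, Acot1 and Acot2 are textbook targets of PPAR alpha, a nuclear receptor, and their transcripts are known to rise in fasting. The members were every probe set that the platform annotation assigns to 1 of these 5 symbols alone, which gave 7 probe sets for 4 genes, out of 45101 probe sets and 18193 named genes on the array. Ucp2 was not analysed here. Each gene was represented by its brightest probe set, the one with the highest mean over the 4 arrays. The genes were picked with their differences between genotypes already known, Ucp3, Angptl4 and Acot1 having been seen to be lower. Their differences are therefore given as a description, without a test.

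The samples were hearts of 2 mouse groups at baseline, both labelled strain C57B6. The knock-in group carried GSK-3beta S9A (Ser9Ala in the series title) and was 3.5 months old, with 2 arrays, and the wild-type group was 3.6 months old, also with 2 arrays. Serine phosphorylation at that site inhibits the kinase GSK-3beta, and alanine cannot be phosphorylated, so the comparison asks how transcripts in the heart differ when this brake is missing. The labels do not say whether the mice were fed or fasted, at what time of day hearts were taken, or whether each array stands for its own animal. Any p-value below thus reflects variation among these 4 samples, part of which may be technical. The labels describe whole heart, in which fewer cells of a type and less RNA per cell cannot be told apart.

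PPAR alpha pairs with the receptor RXR on a DNA element made of a repeated half-site, and fatty acids released from fat during fasting act as its ligands. In heart muscle it is known for switching on fatty acid uptake and oxidation together with genes that restrain glucose use. The members sit at the edges of that programme. Ucp3 is a carrier of the inner mitochondrial membrane, Angptl4 is a secreted inhibitor of lipoprotein lipase, and Acot1 and Acot2 are the cytosolic and mitochondrial thioesterases that split long-chain acyl-CoA into free fatty acid and coenzyme A.

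The 4 arrays were alike in scale, with medians between 5.97 and 6.04 on the log2 scale over all probe sets and Pearson's r between 0.994 and 0.997 across genes, which are not independent replicates. Genotype cannot be checked from transcript levels, since the replacement changes a codon. All 10 cardiomyocyte markers measured (Myh6, Tnnt2, Tnni3, Actc1, Myl2, Myl7, Ttn, Ryr2, Pln and Nppa) were above the upper quartile of every array, with differences between 0.00 and 0.10.

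Ucp3 was 2.05-fold lower in knock-in hearts. Its brighter probe set, 1420657_at, read 9.81 and 9.75 on the wild-type arrays and 8.79 and 8.71 on the knock-in arrays (log2). The groups did not overlap, and the gap of 0.96 between the lowest wild-type and the highest knock-in array was far wider than the gaps within groups, 0.06 and 0.08. The difference of means was -1.03 with a standard error of 0.05 (SD 0.05 in wild-type and 0.06 in knock-in, n = 2 each). The dimmer probe set of the gene, 1420658_at, read 8.36 and 8.03 in wild-type against 7.55 and 7.68 in knock-in hearts, a difference of -0.58 ± 0.18 (SE). It showed the same direction without overlap but a smaller size, 1.49-fold.

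Angptl4 was 2.11-fold lower, with more spread among wild-type hearts. Its brighter probe set, 1417130_s_at, read 8.91 and 9.44 in wild-type and 8.05 and 8.15 in knock-in hearts. Both knock-in arrays lay below both wild-type arrays, with wild-type 2 the highest by 0.53, and the difference was -1.07 ± 0.27 (SE; SD 0.38 and 0.07, n = 2 each). The suffix of that probe set is the one the array maker gives where probes can match more than 1 transcript. The other probe set, 1453410_at, read 3.59 and 3.19 against 3.26 and 3.4. These values lie below the lower quartile of every array, where a transcript is hard to tell from background, and the groups overlapped with a difference of -0.06. The lower Angptl4 value therefore rests on 1 probe set.

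Acot1 was 1.92-fold lower and had a single probe set of its own, 1449065_at. It read 8.63 and 8.90 in wild-type and 8.03 and 7.62 in knock-in hearts, again without overlap. The difference was -0.94 ± 0.24 (SE; SD 0.19 and 0.29, n = 2 each), and knock-in 2 was the lowest array by 0.41.

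Acot2 differed little, at 1.18-fold lower. Its brighter probe set, 1439478_at, read 12.04 and 11.98 in wild-type and 11.69 and 11.86 in knock-in hearts. The groups did not overlap, but the gap between them, 0.12, was smaller than the 0.16 between the 2 knock-in arrays, and the difference was -0.24 ± 0.09 (SE). Without knock-in 1 it was -0.15. The dimmer probe set 1422996_at read 5.58 and 5.08 against 4.94 and 4.76, a difference of -0.48 ± 0.26 (SE) in which the gap of 0.50 between wild-type arrays was as large as the difference itself.

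A further probe set, 1422997_s_at, is annotated to both Acot2 and Acot1 and so was not a member. It read 10.08 and 9.95 in wild-type and 9.0 and 9.02 in knock-in hearts, a difference of -1.0 ± 0.07 (SE). Its size, 2-fold, was close to that of the Acot1 probe set and not to those of the Acot2 probe sets, but which transcript it reads cannot be settled from the array values. Acot1 and Acot2 are close paralogues, so any probe set of either may read some of the other.

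**Figure D1:**
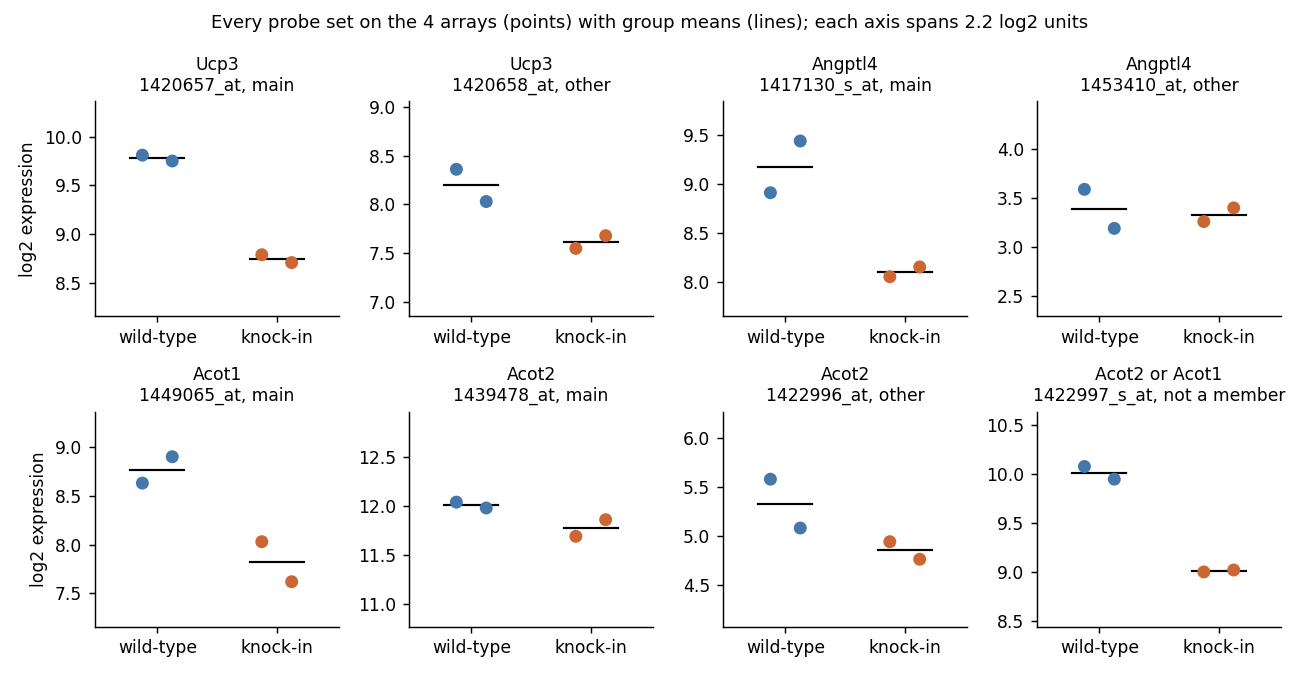
Log2 expression of every member probe set, and of the 1 shared by Acot1 and Acot2, on each array (points; blue wild-type, orange knock-in), with group means as lines and 2 arrays per group. Knock-in points lie below wild-type points in every panel except the dim Angptl4 probe set 1453410_at.

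Ordered by size, the differences were -1.07 for Angptl4, -1.03 for Ucp3, -0.94 for Acot1 and -0.24 for Acot2. Angptl4 and Ucp3 were 0.04 apart with a standard error of 0.28 on that gap, and Ucp3 and Acot1 0.10 apart with 0.25, so these 3 genes cannot be ranked. Acot1 and Acot2 were 0.70 apart with a standard error of 0.26. That gap depends on the probe set: the dimmer Acot2 probe set differed by -0.48 and the one annotated to both genes by -1.0. The standard errors of these gaps treat the 2 genes as independent, although both were read on the same 4 arrays, so they are approximate. Among all 18193 genes, 8 had a more negative difference than Angptl4, 9 than Ucp3, 11 than Acot1 and 1043 than Acot2. Knock-in arrays lay below wild-type arrays in 4 of the 4 measured members, where the share over all genes was 17.0% (36.5% counting either direction), and 3 of the 4 were also at least 1.5-fold lower, where the share was 0.407%. Since the genes were picked from this same contrast, nothing is read from these counts. The single gene below an adjusted p of 0.05 from limma was Cdkn1a, 0.00550% of genes tested, and it is no member. All 4 differences stayed negative when arrays were centred or quantile normalized.

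**Figure D2:**
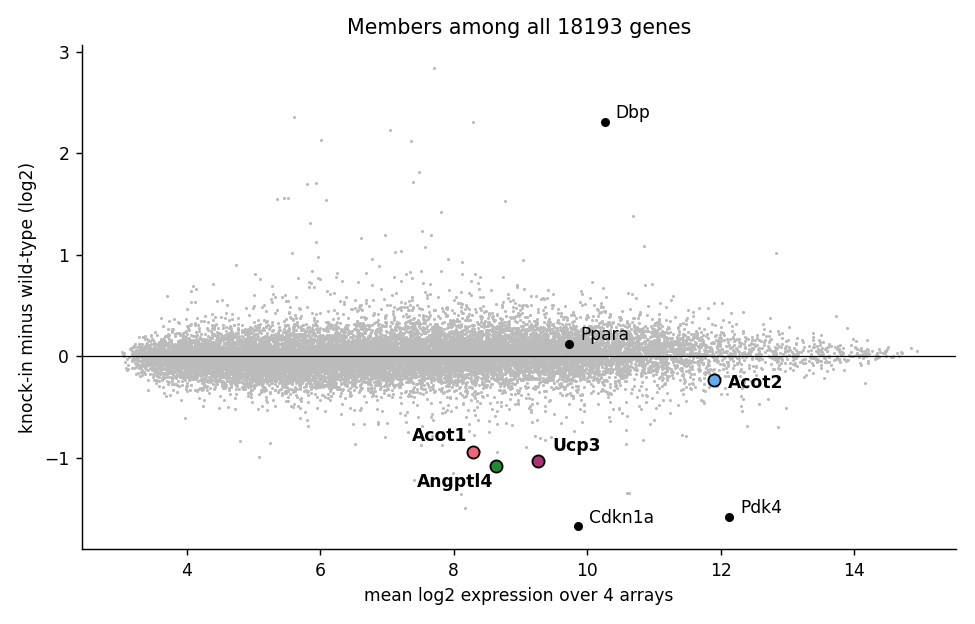
Knock-in minus wild-type difference (log2, vertical) against mean log2 expression over the 4 arrays (horizontal) for 18193 genes, with the 4 members in colour and Pdk4, Ppara, Cdkn1a and Dbp in black. Ucp3, Angptl4 and Acot1 lie together near -1, and Acot2 lies at -0.24 close to the bulk of genes.

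Because PPAR alpha acts through DNA elements near its targets, the sequences before the start are shown for the measured members with a promoter window. RefSeq promoter windows in build GRCm38.p6 were found for 3 genes, Ucp3, Acot1 and Acot2, and none was found for Angptl4. Capitals mark AGGTCA, the half-site to which PPAR and RXR bind, and any direct repeat of AGGTCA with 1 base between that departs from it at no more than 3 of its 12 fixed bases. Each run holds the 250 bases before the annotated start, 5′ to 3′ on the plus strand, at chr7:100472741-100472990 for Ucp3, chr12:84009252-84009501 for Acot1 and chr12:83987611-83987860 for Acot2.
Ucp3: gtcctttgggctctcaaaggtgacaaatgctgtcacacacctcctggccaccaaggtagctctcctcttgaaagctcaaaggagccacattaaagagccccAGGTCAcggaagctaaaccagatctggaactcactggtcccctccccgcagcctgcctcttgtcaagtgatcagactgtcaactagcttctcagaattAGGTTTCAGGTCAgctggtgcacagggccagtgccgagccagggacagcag
Acot1: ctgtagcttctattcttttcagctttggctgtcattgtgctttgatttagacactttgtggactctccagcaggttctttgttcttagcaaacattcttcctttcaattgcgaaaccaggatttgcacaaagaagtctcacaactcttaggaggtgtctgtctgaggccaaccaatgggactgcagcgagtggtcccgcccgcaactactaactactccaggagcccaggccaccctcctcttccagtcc
Acot2: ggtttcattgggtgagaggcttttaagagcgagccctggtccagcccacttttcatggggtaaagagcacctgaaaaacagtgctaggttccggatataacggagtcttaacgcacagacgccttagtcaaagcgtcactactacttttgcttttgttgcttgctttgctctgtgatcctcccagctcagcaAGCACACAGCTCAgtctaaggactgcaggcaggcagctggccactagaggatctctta

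In the Ucp3 window the half-site occurred 149 to 144 bases and again 44 to 39 bases before the start, and the latter closes a direct repeat, at 51 to 39 bases before it, with 2 mismatches. The Acot2 window held a repeat with 3 mismatches at 58 to 46 bases before the start and another with 3 at bases 19 to 31 after it, in the 50 bases that are not printed. No half-site or repeat within that limit was found in the Acot1 window. Searched on both strands, the half-site is held by 16.3% of all 32851 promoter windows of this length and the repeat with up to 3 mismatches by 24.6%, so both are common, while the exact repeat is held by 0.0396% and by none of the 3. An E-box (CACGTG, 7.15% of windows), TATAAA (13.6%) and a glucocorticoid receptor element (GNACA, any 3 bases, TGTNC; 0.475%) were also absent from all 3. A match describes letters only, and elements farther from the start lie outside these windows. The Acot1 and Acot2 windows shared 178 of 300 aligned bases, no more than the 180 shared by Acot1 and Ucp3.

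Genes beside Ucp3, Angptl4 and Acot1 on the chromosome had smaller differences. In RefSeq order Acot2 and Acot1 are adjacent protein-coding genes, followed by the paralogues Acot4, Acot3 and Acot5, which differed by -0.26, 0.16 and -0.06. The gene before Ucp3, C2cd3, differed by -0.11, and Dnajb13 and Coa4, which follow after Ucp2, by 0.00 and -0.15. Angptl4 lies between Rab11b and Kank3, at -0.22 and -0.31. None of the neighbours up to 3 genes away other than the members had an unadjusted limma p under 0.05, where 7.39% of all genes did.

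**Figure D3:**
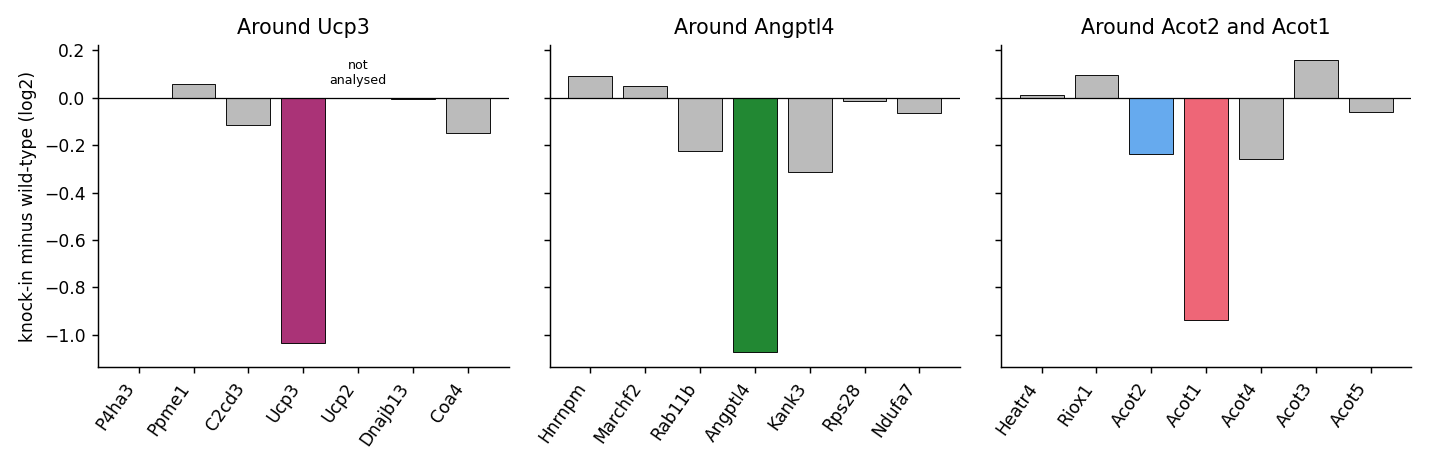
Knock-in minus wild-type difference (log2) of 7 consecutive protein-coding genes around Ucp3, Angptl4 and Acot1, in chromosomal order and not to scale, with members in colour and other genes in grey. The bars of Ucp3, Angptl4 and Acot1 reach -1.03, -1.07 and -0.94, and the other bars lie between -0.31 and 0.16.

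Each member was next set beside its own family. In the uncoupling protein family none of 4 other carriers had an adjusted p under 0.05 from limma or an unadjusted p under 0.05. Of all genes 0.00550% and 7.39% did, so little is read from counts in family lists this short. Ucp1, the uncoupling protein of brown fat, differed by -0.17, and the carriers Slc25a14, Slc25a27 and Slc25a30 by -0.15, -0.20 and 0.09. The sign of Ucp1 and of Slc25a30 turned when single arrays were left out, and Slc25a27 ran from -0.35 without knock-in 1 to -0.04 without knock-in 2.

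Among acyl-CoA thioesterases other than Acot1 and Acot2, none of 10 measured had an adjusted or an unadjusted limma p under 0.05. The shares over all genes were 0.00550% and 7.39%. The differences of the 10 lay between -0.26 (Acot4) and 0.23 (Acot11, -0.04 with the first probe set). Both limits rested on single arrays. Acot4 was at -0.04 without wild-type 1 and -0.47 without wild-type 2, and Acot11 at 0.42 and 0.04. Acot3, a peroxisomal paralogue from the same cluster, read 7.02 and 7.05 in wild-type and 7.18 and 7.22 in knock-in hearts. Acot6 differed by -0.11, and by 0.08 without wild-type 1. The differences of the family were split evenly, 5 below and 5 above 0.

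The angiopoietin-like genes other than Angptl4 gave 0 of 4 with an adjusted limma p under 0.05, where 0.00550% of all genes passed. At an unadjusted limma p under 0.05, 1 gene was higher, where 4.40% of all genes were. That gene was Angptl7, a secreted protein best known from the cornea, at 6.13 and 5.89 in wild-type and 6.42 and 6.33 in knock-in hearts. Angptl8, a partner in lipase inhibition, differed by 0.10, Angptl1 by 0.18 and Angptl6 by 0.03, the last with its sign turned (-0.06) without wild-type 2.

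The lipase that Angptl4 inhibits read the same in both groups. Lpl read 14.33 and 14.32 in wild-type and 14.33 and 14.32 in knock-in hearts, near the top of the array's range, where differences may be compressed. Gpihbp1, which carries the lipase to the capillary wall, differed by -0.22, the lipase maturation factor Lmf1 by 0.10 and the lipase activator Apoc2 by 0.22. Apoc3, a lipase inhibitor made by liver, was 2.96-fold higher at 4.72 and 4.75 against 5.88 and 6.71. Its wild-type values lay just above the lower quartiles of those arrays, 4.67 and 4.59, so the size of its fold has little meaning. Apoc3 is also 1 of 11 measured liver markers, all of which were higher in knock-in hearts. None of the 5 genes, Lpl and its partners, passed over all genes (adjusted p of 0.237 for Apoc3 and 0.720 or above for the others, limma).

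Of 8 measured receptors and coactivators, none passed over all genes, and the coactivator Ppargc1b alone had an unadjusted limma p under 0.05. The shares over all genes were 0.00550% and 7.39%. Ppara itself read 9.42 and 9.92 in wild-type and 9.93 and 9.66 in knock-in hearts, so the groups overlapped, with a difference of 0.13 ± 0.19 (SE; adjusted p = 0.943 from limma) that turned to -0.12 without wild-type 1 and to -0.01 without knock-in 1. Ppargc1b read 11.18 and 11.36 against 10.95 and 11.01, a difference of -0.29 (adjusted p = 0.605, limma). The receptor Rxrb differed by -0.18. Rxrg differed by 0.20, a value that rested on the wild-type arrays (0.39 without wild-type 1 and 0.00111 without wild-type 2), and the coactivator Ppargc1a by -0.11 (0.09 with the first probe set, 0.01 without knock-in 2).

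The wider set of PPAR alpha targets held genes that were lower and genes that were higher. Of 50 listed genes outside the members 47 were measured, with 0 below an adjusted limma p of 0.05 in either direction. At an unadjusted limma p under 0.05, 6 were lower and 5 higher, where 2.99% and 4.40% of all genes were. Arrays lay apart by group with the knock-in lower in 15 of the 47 and higher in 11, where 17.0% and 19.6% of all genes did so. Each of these counts was above the share of all genes, those of lower genes by more. The list was chosen with earlier results known, so nothing is read from this. The median difference of the 47 was -0.03, beside 0.00 over all genes.

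Pdk4, which blocks pyruvate dehydrogenase and so glucose oxidation, had the most negative difference of this set. It read 12.66 and 13.17 in wild-type and 11.58 and 11.09 in knock-in hearts, a difference of -1.58 ± 0.22 (SE), 2.99-fold, with an adjusted p of 0.220 from limma. With an intensity trend and robust prior its adjusted p was 0.0329, and over all alternatives it ran up to 0.944. The largest difference upward was that of Fabp1, the liver fatty acid binding protein, at 5.22 and 4.95 against 6.29 and 7.29 (3.28-fold, adjusted p = 0.262 from limma). Its wild-type values lay below the medians of those arrays, 6.04 and 6.0, so the size of its fold is uncertain. All 11 liver markers measured were higher in the same knock-in hearts, with a median difference of 1.42, and Alb, like Fabp1, was highest on knock-in 2. The part of this liver signal in the Fabp1 value was not tested.

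By role, the 18 enzymes and carriers of mitochondrial and peroxisomal oxidation had a median difference of 0.00. Some of the 18 were nearly as bright as Lpl, where differences may be compressed, such as Ech1 and Hadhb with wild-type means of 14.14 and 14.13. Among the 18, 1 gene was lower (Ehhadh, -0.55) and 1 higher (Acaa1b) at an unadjusted p under 0.05 from limma. At that threshold 2.99% of all genes were lower and 4.40% higher. The list was chosen with earlier results known, so nothing is read from the counts by role. Acaa1b read 4.11 and 3.97 in wild-type and 4.45 and 5.05 in knock-in hearts, below the lower quartile on all arrays but knock-in 2, so the size of its difference has little meaning. The 12 genes of fatty acid uptake, binding and activation had a median of -0.01, with none lower and 2 higher, Fabp1 and Acsl6. Of 8 genes of lipid droplets and lipolysis 3 were lower, namely the droplet coats Plin2 (-0.43) and Plin5 (-0.29) and the monoglyceride lipase Mgll (-0.42), and 1 was higher, G0s2 (0.45), an inhibitor of triglyceride lipase. Of the remaining 9, Pdk4 and Retsat (-0.35) were lower and Txnip (0.43) higher. Pdk4, Fabp1, Mgll and G0s2 are named for having the 4 smallest p in the list and the others for an unadjusted p under 0.05, so all were picked by their values.

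**Figure D4:**
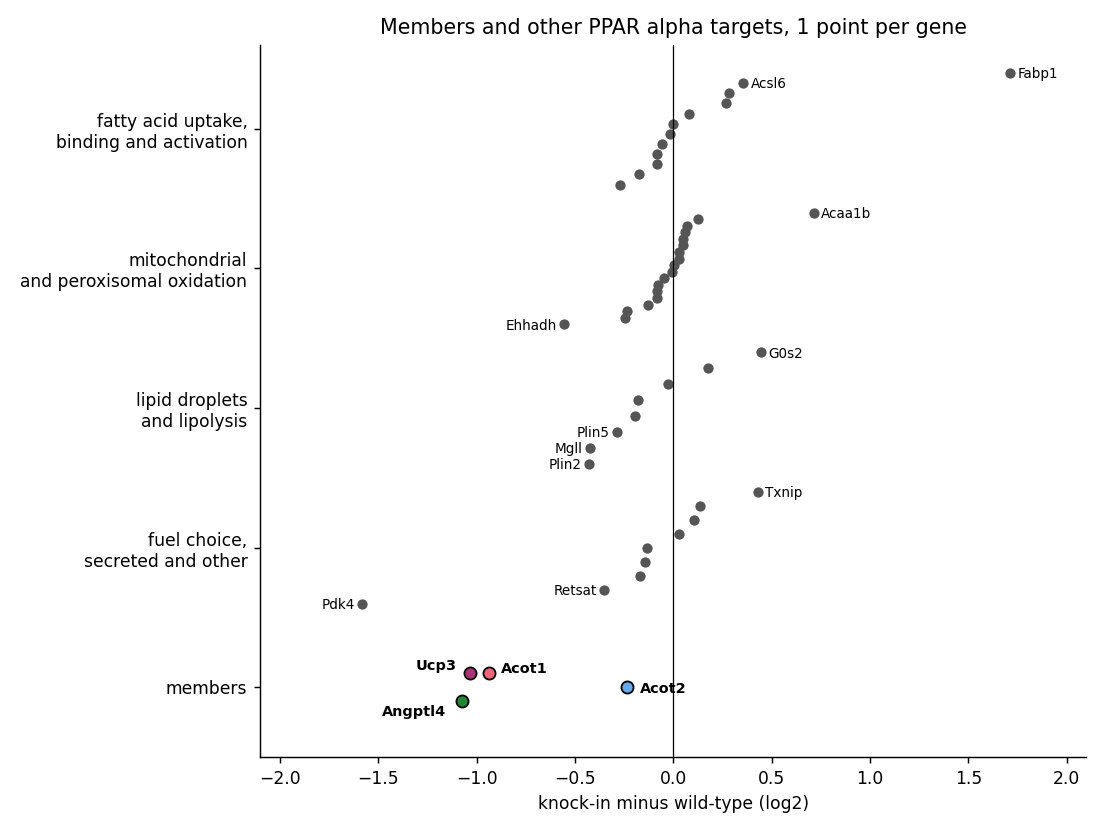
Knock-in minus wild-type difference (log2, horizontal) of the 4 members and of 47 other PPAR alpha targets by role, 1 point per gene, with names for members and for genes with an unadjusted limma p under 0.05. Oxidation enzymes centre on 0.00, while Pdk4 at -1.58 is the only other target to the left of Ucp3, Angptl4 and Acot1.

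The array profiles of the members were compared after the mean of each gene was subtracted, by the root-mean-square difference over the 4 arrays. Ucp3 and Acot1 were 0.173 apart, Angptl4 and Acot1 0.212 and Ucp3 and Angptl4 0.221, whereas Acot2 was at least 0.408 from each of them. The profiles were not scaled, so these distances largely restate the sizes of the differences between groups. Ucp3, Angptl4 and Acot1 were picked with those differences known, so nothing is read from their closeness. Among the 9095 other genes above the median level, the nearest to Ucp3 were Cd44 (0.112), Arhgap31 (0.122) and Hyou1 (0.125). The nearest to Angptl4 were Manf (0.093), Uck2 (0.111) and Sdf2l1 (0.121), all highest on wild-type 2. The nearest to Acot1 were Etfbkmt (0.082), Lmcd1 (0.099) and Slc40a1 (0.123), all lowest on knock-in 2. Between 15 and 20 genes lay within 0.2 of each of these members. The profile of Acot2 was nearly flat and had 6390 genes within 0.2, so its nearest genes, Gbp2, Eif2ak1 and Amer1, single out nothing.

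**Figure D5:**
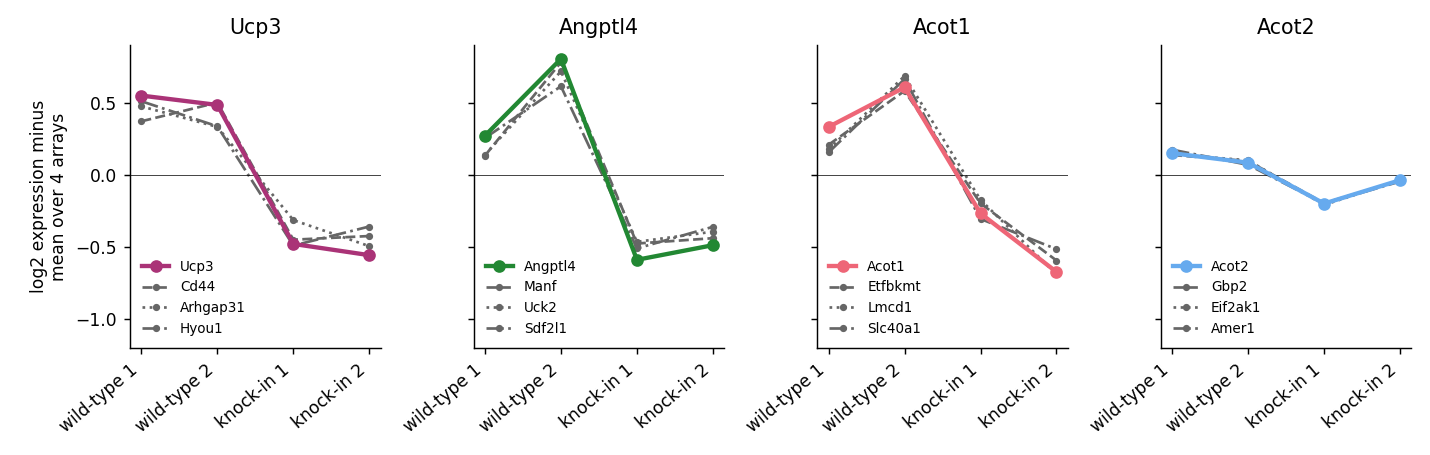
Log2 expression minus the mean of each gene over the 4 arrays (vertical) on each array (horizontal), for each member (thick coloured line) and the 3 genes nearest to it (grey lines). Ucp3 drops evenly between the groups, Angptl4 peaks on wild-type 2, Acot1 is lowest on knock-in 2, and Acot2 stays within a narrow band.

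Clock and liver transcripts separated the same arrays as the members, and their part in the members' differences was not tested. Of 16 clock genes none passed over all genes in the reported fit, while 2 to 4 of them did under 5 alternatives, Dbp and Ciart each with an adjusted limma p of 0.00616 with an intensity trend and robust prior. At an unadjusted limma p under 0.05, 10 were higher and 3 lower, where 4.40% and 2.99% of all genes were. Dbp read 9.42 and 8.79 in wild-type and 11.52 and 11.33 in knock-in hearts, 4.97-fold higher, and Ciart was 3.28-fold higher. Per3 and Tef, 3.53-fold and 2.13-fold higher in their brightest probe sets, depended on the probe set: with all probe sets averaged the log2 differences were 0.80 and 0.38 instead of 1.82 and 1.09, and with the first probe set that of Per3 was -0.11. Collection time and genotype cannot be told apart here, because the labels give no time. The summed signal of the 11 liver markers, on the linear scale, was 1180 and 816 in wild-type against 2407 and 3917 in knock-in hearts. Alb read 7.01 and 5.54 against 8.58 and 9.66. The liver signal was higher in the knock-in group, where Ucp3, Angptl4 and Acot1 were lower. Within groups the arrays with more liver signal were wild-type 1 and knock-in 2. Acot1 was the lower of its pair on both of these arrays, Ucp3 on knock-in 2 only and Angptl4 on wild-type 1 only. The gaps of Ucp3 within groups were only 0.06 and 0.08, and with 2 arrays per group nothing is read from these orders.

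Marker lists of the other cell types a heart sample can hold were summed in the same way. Skeletal muscle, where Ucp3 is abundant, gave a summed signal of 636 and 523 in wild-type and 529 and 546 in knock-in hearts over 9 markers, with Myh1 and Myh4 below the lower quartile of every array. Of 6 adipocyte markers Adipoq was 2.18-fold higher in knock-in hearts. Its wild-type values, 5.11 and 5.65, lay below the medians of those arrays, so the size of its fold is uncertain. Cidec and Lep were below the lower quartile of every array, and the summed signal of the 6 was 1376 and 1182 against 1210 and 1399. Most of that sum was Cidea (10.15 and 9.89 against 9.86 and 10.12, log2), also on the list of PPAR alpha targets, so it says little about the amount of fat. The 8 macrophage markers summed to 8745 and 9411 against 9380 and 9937. The 5 endothelial markers summed to 5419 and 5247 against 4565 and 5554, and the 5 fibroblast markers to 15665 and 15765 against 16339 and 17233. The 3 erythrocyte markers summed to 580 and 415 against 488 and 667. Hba-a1 was below the lower quartile of every array and most of the sum was Alas2, so it says little about the amount of blood.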

How the data were processed

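The deposited table held log2 expression values for 45101 probe sets on 4 Affymetrix 3′ expression arrays. Per the submitters' processing notes the authors made these log2 values with RMA in Affymetrix Expression Console, and per the labels the wild-type and knock-in arrays were normalized together and with no other arrays. A genome build for the array is not given in the sources used. Probe sets were named through the platform annotation, with 1 symbol for 34945, several for 932 and none for 9160 besides 64 controls, and symbols were updated through a RefSeq table of GRCm38.p6. RMA gives no detection call, and the number of arrays limits the precision.

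Differences over all 18193 genes were fitted with lmFit and eBayes of limma 3.58.1 (R 4.3.3), two-sided, with Benjamini-Hochberg adjustment at 0.05 and no filter on dim genes. In data simulated for this comparison (5 runs of 18193 genes, 200 of them changed per run) 84.6% of 2-fold and 99.2% of 4-fold changes were recovered, with 8.4 false calls per run. The simulated noise was independent and drawn from limma's prior, and the planted changes ease the adjusted threshold. These shares do not carry over to the real arrays, where the fit called 1 gene and Pdk4, at 2.99-fold, had an adjusted p of 0.220 from limma. Group errors are SDs with n = 2, and the standard errors of members come from these SDs, those of other genes from limma. An exact permutation test was not used, as 2 against 2 arrays cannot reach the threshold. The members and gene lists were chosen with earlier results of these data known. Named genes were the members, the 4 of smallest p in each list, Ppara, Pdk4 and the 3 nearest profiles of each member. Alternatives were the replicate block, an intensity trend with robust prior, array centring, quantile normalization, genes above the median, other choices of probe set, and leaving out each array.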

Additional observations from a re-analysis of the deposited data

How the results depend on the processing

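All 4 member differences stayed negative under every alternative. They moved by more than the SD between replicates with all probe sets of a gene averaged (Ucp3 -0.81, Angptl4 -0.57, Acot2 -0.36), with the first probe set (Acot2 -0.48) and without suffixed probe sets, which leaves Angptl4 its dim probe set (-0.06). Leaving out 1 array gave -1.07 to -1.0 for Ucp3, -1.34 to -0.81 for Angptl4, -1.14 to -0.74 for Acot1 and -0.32 to -0.15 for Acot2. Over all genes 1 passed in the reported fit, 22 with an intensity trend and robust prior, 11 with arrays centred, 11 with quantile normalization, 11 with averaged probe sets, 7 among genes above the median, 0 with the first probe set, 0 with the replicate number as a block, 0 with crossed numbers (chosen after seeing the data) and 0 without any 1 array. The cause was not tested. The numbers are shared by label alone, and same-numbered arrays deviated with a correlation of -0.03 over all genes and -0.15 above the median. Of the other PPAR alpha targets 1, Pdk4, passed with the trend and none in the other fits. Without knock-in 2, 677 genes had an unadjusted p under 0.05 instead of 1344, and 7 of the 47 targets instead of 11, with 6 without knock-in 1. Of the clock genes 4 passed with the trend, 4 with averaged probe sets and 2 with centring, quantile normalization or genes above the median. Signs that turned were those of Acot11 (-0.04) and Per3 (-0.11) and Ppargc1a (0.09) with the first probe set, Acot6 (0.08), Ppara (-0.12), Slc25a30 (-0.10) and Ucp1 (0.06) without wild-type 1, Angptl6 (-0.06) without wild-type 2, Ppara (-0.01) without knock-in 1, and Ppargc1a (0.01), Slc25a30 (-0.00356) and Ucp1 (0.03) without knock-in 2. Over the fits that leave out 1 array Acot6 ran from -0.31, Angptl6 up to 0.12, Ppara up to 0.38, Ppargc1a from -0.23, Slc25a30 up to 0.29 and Ucp1 from -0.4.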
